A study of Mus musculus with 8 samples.

Results

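The 10 genes described here bring choline into cells or build the head groups of membrane phospholipids. These genes were measured in sorted endothelial cells of the brain of Flvcr2 knockout and Flvcr2 heterozygous mouse embryos. They are the choline transporter-like genes Slc44a1, Slc44a2 and Slc44a5, the choline kinase gene Chka, the CDP-choline and CDP-ethanolamine pathway genes Pcyt1a, Chpt1, Cept1 and Pcyt2, and the phosphatidylserine synthase genes Ptdss1 and Ptdss2. They were chosen by name, make up 10 of the 24421 rows of the deposited count table, and all 10 had enough reads to be tested. RNA was measured in 4 libraries from Flvcr2 knockout embryos and 4 libraries from Flvcr2 heterozygous embryos, all of strain C57Bl6 at E14.5. The mutated allele makes cells express GFP, so the heterozygous embryos, the controls here, also carry a mutated copy, and cells positive for GFP and for CD31, an endothelial surface protein, were sorted in both genotypes. Wild-type embryos are not among the groups compared. The labels do not name the embryo behind each library, so a p-value here measures the spread between libraries, which may be partly technical.

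Phosphatidylcholine, the most abundant phospholipid of mammalian membranes, is made mainly by the CDP-choline branch of the Kennedy pathway. Choline enters the cell through transporters, is phosphorylated by choline kinase, is activated to CDP-choline by Pcyt1a, and is joined to diacylglycerol by Chpt1 or Cept1. Phosphatidylethanolamine is made in parallel from CDP-ethanolamine, the product of Pcyt2, and phosphatidylserine is made by base exchange, by Ptdss1 from phosphatidylcholine and by Ptdss2 from phosphatidylethanolamine. Flvcr2 and the related Flvcr1 are known choline transporters, and Flvcr2 is expressed by endothelial cells of the developing brain.

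The 8 libraries held between 9.11 and 35.9 M counted reads. Levels are given as counts per 1 M (CPM) of the library size scaled by edgeR's TMM factors, and as mean ± SD over 4 libraries. Knockout library 2 and heterozygous library 1 lay at the ends of the first principal component, which held 41.2% of the variance. Knockout library 1 had 1 count and heterozygous library 2 had 0 counts of Xist, the X-inactivation RNA, with 914 and 331 counts of the Y-linked gene Ddx3y. Of the 6 libraries with Xist counts of 229 or more, knockout library 4 and heterozygous libraries 3 and 4 also had 6, 28 and 56 Ddx3y counts, and the other 3 had 0. Of 10 endothelial markers 1, Emcn, was called, and was higher in knockout libraries, and the summed level of the 10 was 8423 to 11578 CPM in knockout libraries and 6309 to 11046 CPM in heterozygous libraries. Markers of other brain cells were lower in knockout libraries where called, which covered 7 of 10 neuron, 3 of 8 radial glia, 2 of 8 pericyte, 1 of 8 microglia, 2 of 4 erythroid and 0 of 6 fibroblast markers. Their summed neuron level was 91.3 to 282 CPM in knockout libraries and 287 to 1828 CPM in heterozygous libraries, and their summed erythroid level was 17.6 to 51.8 CPM in knockout libraries and 228 to 611 CPM in heterozygous libraries. No marker was at 0 in all libraries.

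The region just upstream of the transcription start is shown for the pair of members whose level was called, Slc44a5 and Ptdss2, and for Pcyt1a, the only matched member with a sterol response element core. Each is the 250 bases before a RefSeq promoter's start in GRCm38.p6 on the plus strand, 5′ to 3′, at chr3:153973186-153973435 for Slc44a5, chr7:141131036-141131285 for Ptdss2 and chr16:32430671-32430920 for Pcyt1a. The gene span of Ptdss2 given below starts at 141131267, so the last bases of its window lie inside that span. Capitals mark motif matches, which are the sterol core and a pair of overlapping GC boxes in Pcyt1a.
Slc44a5: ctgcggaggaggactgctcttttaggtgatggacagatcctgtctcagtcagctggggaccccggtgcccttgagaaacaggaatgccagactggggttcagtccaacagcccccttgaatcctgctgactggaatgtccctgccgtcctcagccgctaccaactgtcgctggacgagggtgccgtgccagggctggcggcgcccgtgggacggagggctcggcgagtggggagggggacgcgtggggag
Ptdss2: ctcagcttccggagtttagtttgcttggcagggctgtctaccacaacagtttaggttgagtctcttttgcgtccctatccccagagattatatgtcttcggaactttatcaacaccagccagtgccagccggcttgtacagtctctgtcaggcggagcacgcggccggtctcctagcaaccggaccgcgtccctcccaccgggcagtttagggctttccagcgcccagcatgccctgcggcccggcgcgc
Pcyt1a: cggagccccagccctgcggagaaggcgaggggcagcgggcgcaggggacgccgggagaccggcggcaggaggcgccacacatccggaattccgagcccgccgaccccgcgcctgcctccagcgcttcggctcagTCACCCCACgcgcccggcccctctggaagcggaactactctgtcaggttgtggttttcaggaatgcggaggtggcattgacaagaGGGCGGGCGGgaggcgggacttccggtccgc

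RefSeq promoters were matched for 8 of the 10 members, all but Pcyt2 and Ptdss1. Both strands were searched for 6 short motifs, in every RefSeq promoter of a member. Of the further Pcyt1a windows, chr16:32430770-32431019 held the same sterol core and chr16:32430980-32431229 held no motif. The shares below use only the first promoter of each gene, so members with several promoters had more chances of a match. The GC box GGGCGG occurred in 32.9% of 27025 mouse promoters of this length and CCAAT in 34.5%. The sterol response element core TCACNCCAC occurred in 1.04%, the amino acid response element core TGATGNAA in 3.53%, the cyclic AMP response element TGACGTCA in 1.62%, and the unfolded protein response element core TGACGTGG in 0.503%. The windows of Slc44a5 and Ptdss2 held none of the 6, which says only that these letters are not in these windows. They had 65.2% and 59.6% G or C and 15 and 17 CpG, while the Pcyt1a window had 71.6% and 28 CpG. The median over all promoters was 52.0% and 6 CpG.

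Knockout libraries differed from heterozygous libraries at 2 of the 10 members. Ptdss2 rose 1.48-fold and Slc44a5, the least abundant member in knockout libraries, fell 8.12-fold. Calls required an adjusted p under 0.05 in edgeR's quasi-likelihood test, with Benjamini-Hochberg adjustment over all 13540 genes tested. Of those genes 9.55% were called, 5.53% higher and 4.02% lower in knockout libraries, so the 2 called among 10 members stand about 1 gene above that share, and nothing particular to the members is read from the count. The median log2 fold change was 0.14 over the members and -0.03 over all genes tested. Knockout and heterozygous values did not overlap at 3 members, Slc44a5, Cept1 and Ptdss2, against 17.6% of all genes. The standard error (SE) of the log2 fold change was smaller than that of the median gene, 0.284, at 8 members.

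**Figure D1:**
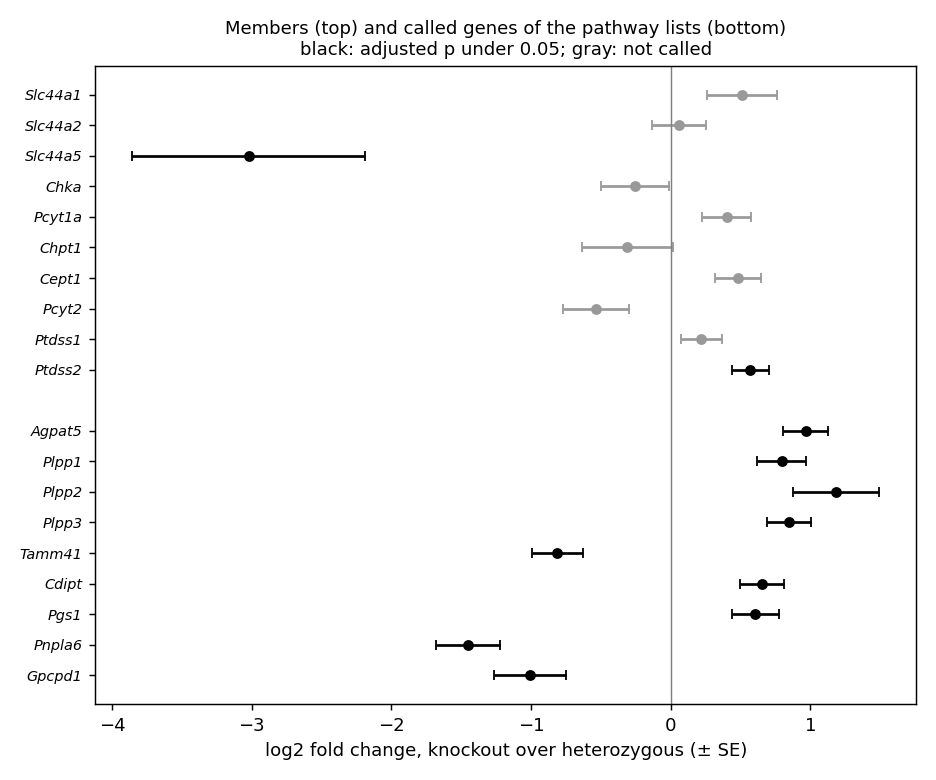
Log2 fold change of each member, knockout (KO) over heterozygous (Het), with bars of 1 SE from edgeR; the lower block holds the 9 called genes of the pathway lists, black marks called genes and gray the others. Slc44a5 lies at -3.02 and Ptdss2 at 0.57, and the other 8 members lie between -0.53 and 0.51.

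The members spanned a wide range of abundance, which is compared here as CPM per kilobase of merged coding-transcript exons. In knockout libraries Slc44a2 (48.9 ± 4.62), Ptdss1 (48.7 ± 3.08) and Ptdss2 (44.1 ± 2.78) were highest, and neighbours among them overlapped. Cept1 followed at 28.4 ± 1.73, apart from its neighbours on either side. Pcyt2 (18.4 ± 5.46), Pcyt1a (18.3 ± 3.26), Chka (13.0 ± 3.32) and Slc44a1 (12.7 ± 2.02) came next, each overlapping its neighbour. Chpt1 at 0.974 ± 0.281 and Slc44a5 at 0.251 ± 0.269 were lowest and did not overlap each other. In heterozygous libraries Slc44a2 (46.9 ± 12.7) and Ptdss1 (41.9 ± 6.40) again led, before Ptdss2 (29.7 ± 3.19), Pcyt2 (26.6 ± 3.20), Cept1 (20.3 ± 4.17), Chka (15.5 ± 4.01), Pcyt1a (13.8 ± 2.37) and Slc44a1 (8.92 ± 3.33). Slc44a5 at 2.05 ± 0.850 and Chpt1 at 1.21 ± 0.293 were lowest there. The only gap between neighbours in the heterozygous order was the one below Slc44a1.

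**Figure D2:**
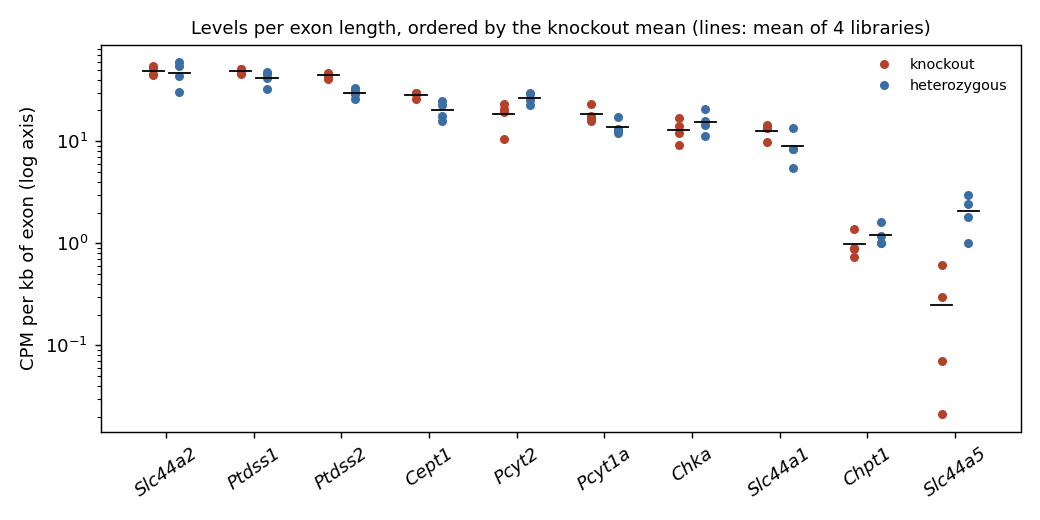
Level of each member in CPM per kilobase of exon, on a log axis, with knockout left of heterozygous; each point is 1 library, lines are means of 4 libraries, and genes are ordered by the knockout mean. Slc44a2, Ptdss1 and Ptdss2 are highest in both genotypes, and Slc44a5 and Chpt1 are lowest.

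Among the transporters, Slc44a5 (Entrez 242259, chr3:153973436-154271747), a member of the choline transporter-like family, had 1.23, 0.0871, 2.51 and 0.289 CPM in knockout libraries 1 to 4, against 4.08, 9.98, 12.2 and 7.38 CPM in heterozygous libraries 1 to 4. Every knockout library was below every heterozygous library, and the knockout libraries ranged widely, with counts of 24, 1, 44 and 10 reads, against 43, 94, 285 and 133 reads in heterozygous libraries. The means were 1.03 ± 1.10 CPM in knockout libraries and 8.40 ± 3.48 CPM in heterozygous libraries, and the log2 fold change was -3.02 ± 0.83 (SE; edgeR adjusted p = 0.0459). The difference lay close to the threshold. It was called without knockout library 3 (edgeR adjusted p = 0.0187) and lost on leaving out any other library, with adjusted p of 0.105, 0.0565 and 0.105 without knockout libraries 1, 2 and 4 and of 0.0596, 0.0935, 0.114 and 0.0749 without heterozygous libraries 1, 2, 3 and 4. The log2 fold change in these fits ran from -3.93 to -2.66. Without the 2 libraries at the ends of the first component it was -2.90 (adjusted p = 0.0535), and without the 2 libraries with almost no Xist it was -3.02 (adjusted p = 0.184).

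Like Slc44a5, the called markers of other cell types were lower in knockout libraries. The neuron list's summed level was 211, 93.6, 282 and 91.3 CPM in knockout libraries 1 to 4 and 1828, 287, 767 and 432 CPM in heterozygous libraries 1 to 4. The summed radial glia level was 34.8 to 231 CPM in knockout libraries and 140 to 445 CPM in heterozygous libraries, and the summed pericyte level 20.5 to 174 CPM in knockout libraries and 162 to 278 CPM in heterozygous libraries. The summed microglia level was 98.8 to 638 CPM in knockout libraries and 380 to 1098 CPM in heterozygous libraries, and the summed fibroblast level 46.9 to 524 CPM in knockout libraries and 140 to 363 CPM in heterozygous libraries. Within a genotype Slc44a5 did not keep the order of the neuron sum: knockout library 3 had the highest neuron sum and the highest Slc44a5 among knockout libraries, while heterozygous library 1 had the highest neuron sum and the lowest Slc44a5 among heterozygous libraries. The pericyte sum was also highest in knockout library 3 (174 CPM), but lowest in heterozygous library 1 (162 CPM), like Slc44a5. Heterozygous library 4 had the highest pericyte sum (278 CPM), with Slc44a5 below that of heterozygous libraries 2 and 3. Which cells the Slc44a5 reads came from was not tested. With a neuron marker score as a covariate the log2 fold change of Slc44a5 was -2.24 (edgeR adjusted p = 0.418), and with a score over 5 lists of other cell types (all but fibroblast) it was 0.09 ± 1.35 (SE, adjusted p = 0.995). The second score was 1.89 to 3.18 in knockout libraries and 4.42 to 5.36 in heterozygous libraries, so it and the genotype cannot be told apart. The neuron score was 2.10 to 4.07 in knockout libraries and 4.11 to 6.81 in heterozygous libraries. It also separated the genotypes, by a narrow gap, so its fits do not isolate the genotype either. In RNA from sorted cells in bulk, fewer cells of a type and less RNA per cell cannot be told apart either. After the mean of each genotype was subtracted, the genes most like Slc44a5 over the 8 libraries in log2 CPM were Slc4a3 (Pearson r = 0.99), Hbp1 (r = 0.97) and Psd2 (r = 0.96), among genes that share the same libraries and depths. Picking the highest r among all genes tested favours high values, and no test was run on them.

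**Figure D3:**
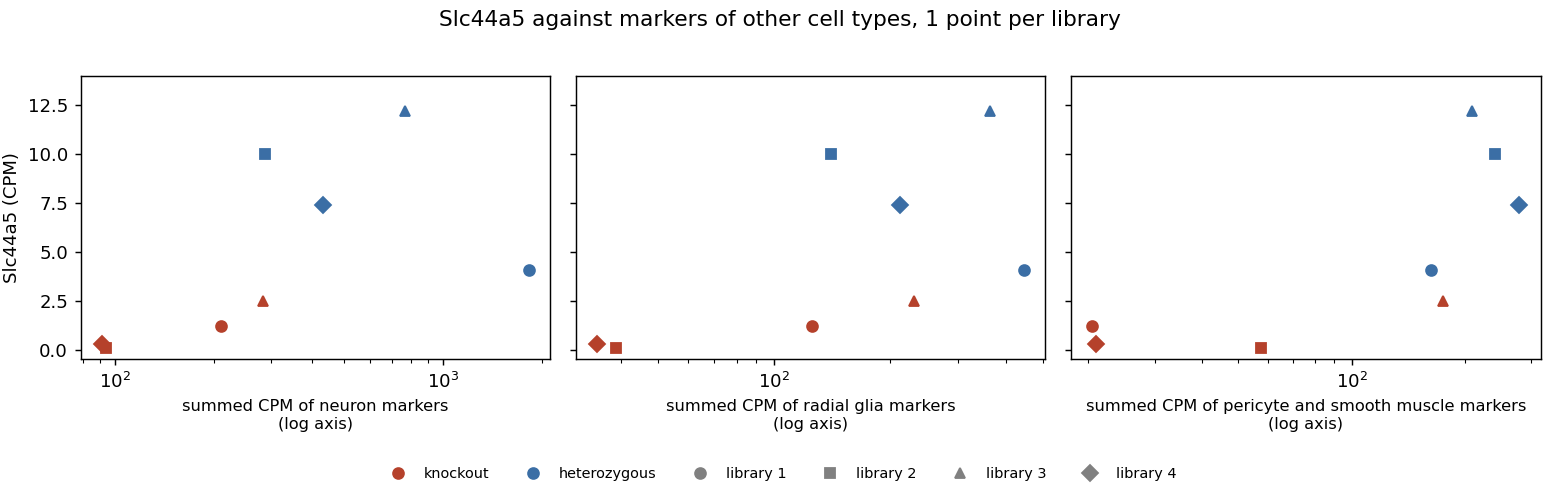
Slc44a5 level in CPM against the summed level, in CPM on a log axis, of neuron, radial glia, and pericyte and smooth muscle markers; each point is 1 of 4 knockout or 4 heterozygous libraries. Knockout libraries lie at 0.0871 to 2.51 CPM of Slc44a5 and heterozygous libraries at 4.08 to 12.2 CPM. Heterozygous library 1, with the highest neuron sum and the lowest pericyte sum among heterozygous libraries, has the lowest heterozygous value.

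Slc44a1 (Entrez 100434, chr4:53440387-53622478), the broadly expressed choline transporter of plasma and mitochondrial membranes, had 89.5, 65.2, 95.5 and 89.6 CPM in knockout libraries, against 36.5, 55.5, 89.9 and 56.3 CPM in heterozygous libraries. The genotypes overlapped through heterozygous library 3, without which the log2 fold change was 0.78 (edgeR adjusted p = 0.0629), while without heterozygous library 1 it was 0.33. The difference did not pass the test (84.9 ± 13.5 CPM in knockout and 59.6 ± 22.2 CPM in heterozygous libraries, log2 fold change 0.51 ± 0.25 SE, edgeR adjusted p = 0.226). Slc44a2 (Entrez 68682, chr9:21320719-21355028), another choline transporter of the family and the most abundant member, had 195, 163, 162 and 186 CPM in knockout libraries, against 111, 215, 195 and 158 CPM in heterozygous libraries. Heterozygous library 1 was lowest and library 2 highest, so that the knockout values fell inside the heterozygous range (177 ± 16.7 CPM in knockout and 170 ± 45.8 CPM in heterozygous libraries, log2 fold change 0.06 ± 0.20 SE, edgeR adjusted p = 0.881). No difference of Slc44a2 was detectable against that spread, and its sign turned with library size alone (-0.06) and without heterozygous library 1 (-0.10).

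The CDP-choline branch held no called member. Chka (Entrez 12660, chr19:3851585-3894369), which phosphorylates choline, had 31.1, 44.1, 36.8 and 23.7 CPM in knockout libraries, against 37.3, 54.2, 41.0 and 29.1 CPM in heterozygous libraries (log2 fold change -0.25 ± 0.24 SE, edgeR adjusted p = 0.557). The genotypes overlapped over most of their range, with library 2 highest and library 4 lowest in both, and the log2 fold change was -0.40 without knockout library 2, -0.11 without knockout library 4 and -0.08 without heterozygous library 2. Pcyt1a (Entrez 13026, chr16:32430921-32475065), the rate-limiting enzyme of the branch, had 87.5, 78.6, 115 and 84.3 CPM in knockout libraries, against 60.1, 66.2, 86.6 and 63.9 CPM in heterozygous libraries (log2 fold change 0.40 ± 0.17 SE, edgeR adjusted p = 0.178). Only heterozygous library 3 reached into the knockout range.

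Chpt1 (Entrez 212862, chr10:88469513-88503970), the choline-specific phosphotransferase, had 7.05, 11.0, 5.87 and 7.07 CPM in knockout libraries, against 7.98, 13.0, 8.07 and 9.38 CPM in heterozygous libraries (log2 fold change -0.31 ± 0.33 SE, edgeR adjusted p = 0.597). Library 2 was highest in both genotypes, the ranges overlapped, and the log2 fold change was -0.52 without knockout library 2, -0.18 without knockout library 3 and -0.13 without heterozygous library 2. Cept1 (Entrez 99712, chr3:106502260-106547802), which accepts both CDP-choline and CDP-ethanolamine, had 79.1, 90.2, 90.1 and 88.3 CPM in knockout libraries, against 48.7, 69.3, 54.5 and 76.2 CPM in heterozygous libraries. All 4 knockout libraries were above all 4 heterozygous libraries, at 86.9 ± 5.29 CPM against 62.2 ± 12.8 CPM, and the difference did not pass the test (log2 fold change 0.48 ± 0.17 SE, edgeR adjusted p = 0.0965). Of the merged exon bases of Cept1, 24.7% are shared with Dennd2d on the opposite strand, so without a stated strand setting the level of Cept1 is uncertain. The same kind of overlap covered 7.93% of Chpt1 (with Sycp3), 7.65% of Pcyt1a (with Slc51a) and 5.33% of Ptdss1 (with Mterf3), and none of Slc44a2, Pcyt2 or Ptdss2.

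Pcyt2 (Entrez 68671, chr11:120610062-120617947), which makes CDP-ethanolamine and limits that branch, had 36.3, 43.5, 19.8 and 38.6 CPM in knockout libraries, against 55.8, 47.5, 54.0 and 42.8 CPM in heterozygous libraries. Knockout library 3 was the lowest of the 8, and knockout library 2 was above heterozygous library 4. The means were 34.6 ± 10.3 CPM in knockout libraries and 50.03 ± 6.02 CPM in heterozygous libraries, and the difference did not pass the test (log2 fold change -0.53 ± 0.23 SE, edgeR adjusted p = 0.181). Without knockout library 3 it was -0.33 (adjusted p = 0.277).

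**Figure D4:**
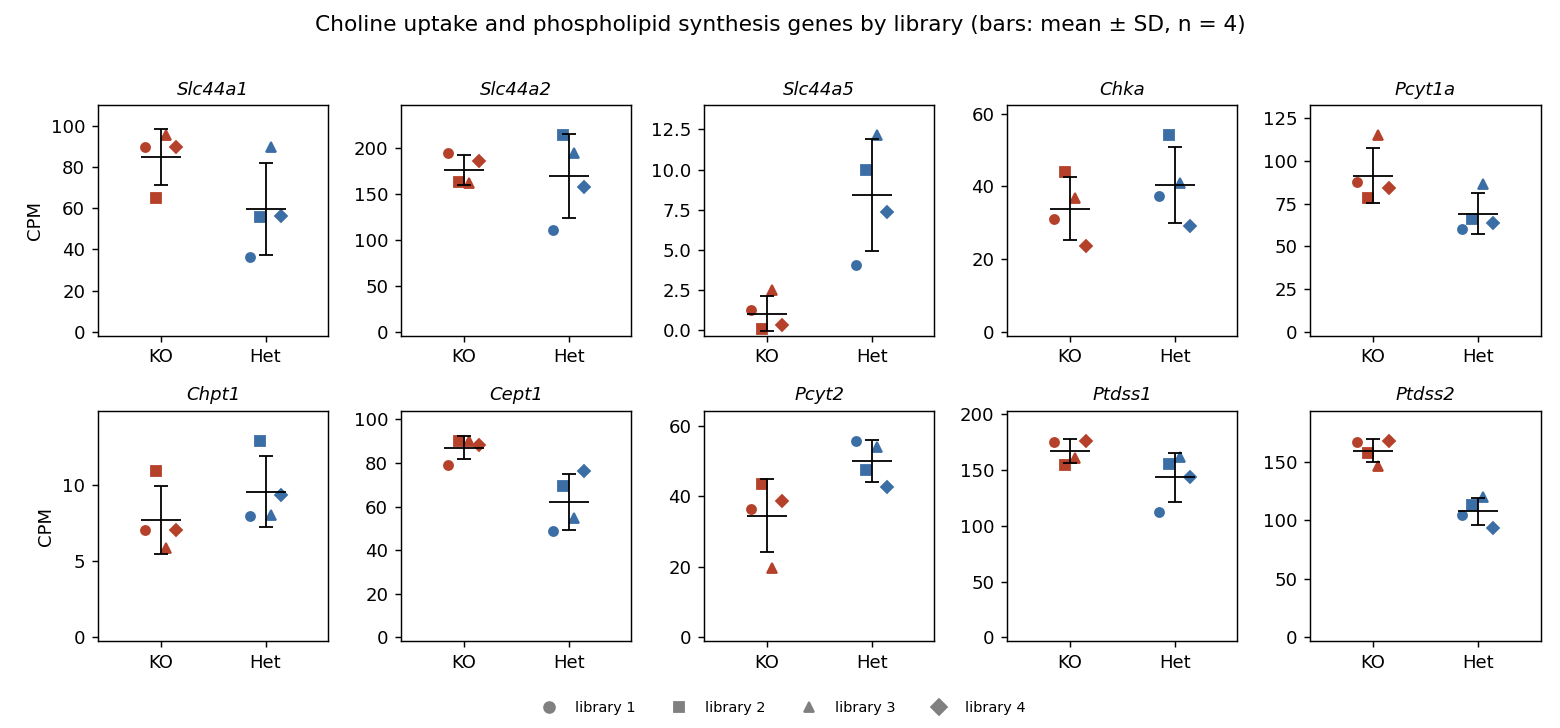
Level in CPM of each of the 10 members in every library, knockout (KO) left of heterozygous (Het); marker shapes stand for library numbers 1 to 4 and bars for mean ± SD; the lower SD bar of Slc44a5 in knockout libraries reaches below 0. The genotypes separate in Slc44a5, Cept1 and Ptdss2 and overlap in the other 7 panels.

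Of the phosphatidylserine synthases, Ptdss2 (Entrez 27388, chr7:141131267-141156158), which exchanges the head group of phosphatidylethanolamine for serine, had 167, 157, 147 and 168 CPM in knockout libraries, against 104, 113, 120 and 93.4 CPM in heterozygous libraries. All 4 knockout libraries were above all 4 heterozygous libraries. The means were 160 ± 10.1 CPM in knockout libraries and 108 ± 11.6 CPM in heterozygous libraries, and the log2 fold change of 0.57 ± 0.13 (SE) passed the test (edgeR adjusted p = 0.0250). It ran from 0.51 to 0.63 as each library was left out in turn. The call was lost without knockout library 1 or 4 (edgeR adjusted p = 0.0718 and 0.0700) and without heterozygous library 1, 2 or 4 (adjusted p = 0.0590, 0.0515 and 0.0570), and held without each of the other 3. Without the 2 libraries at the ends of the first component the log2 fold change was 0.56 (adjusted p = 0.0655), and without the 2 libraries with almost no Xist it was 0.58 (adjusted p = 0.133). With the neuron score as a covariate it was 0.54 (adjusted p = 0.377), and with the score over other cell types 0.32 ± 0.37 (SE, adjusted p = 0.949). Both scores separated the genotypes without overlap, so neither fit isolates the genotype.

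Ptdss1 (Entrez 19210, chr13:66932830-66998401), which uses phosphatidylcholine as its substrate, had 175, 155, 161 and 176 CPM in knockout libraries, against 112, 156, 162 and 144 CPM in heterozygous libraries. The ranges overlapped, with heterozygous library 1 the lowest of the 8, and the difference did not pass the test (167 ± 10.54 CPM in knockout and 143 ± 21.9 CPM in heterozygous libraries, log2 fold change 0.22 ± 0.15 SE, edgeR adjusted p = 0.378), with a log2 fold change of 0.12 without heterozygous library 1. After the genotype means were subtracted, the genes most like Ptdss2 over the 8 libraries in log2 CPM were Pisd (Pearson r = 0.99), Armcx6 (r = 0.98) and Pi4kb (r = 0.97). They were picked as the highest r among all genes tested, which favours high values, and no test was run on them. Pisd, the mitochondrial enzyme that turns phosphatidylserine into phosphatidylethanolamine, had 148, 128, 121 and 148 CPM in knockout libraries, against 95.5, 109, 115 and 82.0 CPM in heterozygous libraries. Its genotypes did not overlap either, but it was not called (log2 fold change 0.44 ± 0.15 SE, edgeR adjusted p = 0.0925). Of its 50-base sequences, 36.4% also occur, read on either strand, in transcripts of other genes.

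The balance between pairs of enzymes was read as the ratio of their counts within a library, which needs no scaling between libraries and is not corrected for length. Of 5 ratios, 2 separated the genotypes, and none passed after adjustment over the 5. The Pcyt2 to Pcyt1a ratio, ethanolamine against choline activation, was 0.415, 0.553, 0.172 and 0.458 in knockout libraries, against 0.929, 0.718, 0.624 and 0.669 in heterozygous libraries. Every knockout value was lower, by 0.99 on average on the log2 scale (two-sided exact permutation p = 0.0286, the smallest that 70 arrangements can give, adjusted p = 0.0714). Without knockout library 3 the mean log2 difference was -0.62. The ratio leaves out Pcyt1b, another gene for choline activation, which was less abundant than Pcyt1a and was not called. Pcyt1b was at 0.764 ± 1.04 CPM in knockout and 5.14 ± 4.21 CPM in heterozygous libraries (log2 fold change -2.71 ± 1.12 SE, edgeR adjusted p = 0.158). The Cept1 to Chpt1 ratio was 11.2, 8.19, 15.3 and 12.5 in knockout libraries, against 6.08, 5.33, 6.74 and 8.10 in heterozygous libraries. Every knockout value was higher, with a mean log2 difference of 0.83 (exact permutation p = 0.0286, adjusted p = 0.0714), and the opposite-strand overlap of Cept1 bears on it. The Ptdss2 to Ptdss1 ratio was 0.954, 1.02, 0.909 and 0.954 in knockout libraries, against 0.928, 0.726, 0.744 and 0.650 in heterozygous libraries. Knockout values lay near equality and overlapped heterozygous library 1, with a mean log2 difference of 0.34 (exact permutation p = 0.0571, adjusted p = 0.0952).

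The Slc44a2 to Slc44a1 ratio was 2.18, 2.50, 1.70 and 2.08 in knockout libraries, against 3.03, 3.86, 2.17 and 2.80 in heterozygous libraries, a mean log2 difference of -0.47 (exact permutation p = 0.0857, adjusted p = 0.107). The Chka to Chkb ratio was 48.7, 40.5, 34.9 and 60.8 in knockout libraries, against 19.2, 68.1, 44.7 and 30.0 in heterozygous libraries (mean log2 difference 0.31, exact permutation p = 0.514, adjusted p = 0.514), and the difference ran from 0.01 without heterozygous library 1 to 0.61 without heterozygous library 2. Chka reads thus outnumbered those of Chkb, the other choline kinase gene, in every library of either genotype. Chkb itself was at 0.765 ± 0.327 CPM in knockout libraries and 1.12 ± 0.526 CPM in heterozygous libraries. Of its 50-base sequences, 87.4% also occur, read on either strand, in transcripts of other genes, so its level is uncertain.

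**Figure D5:**
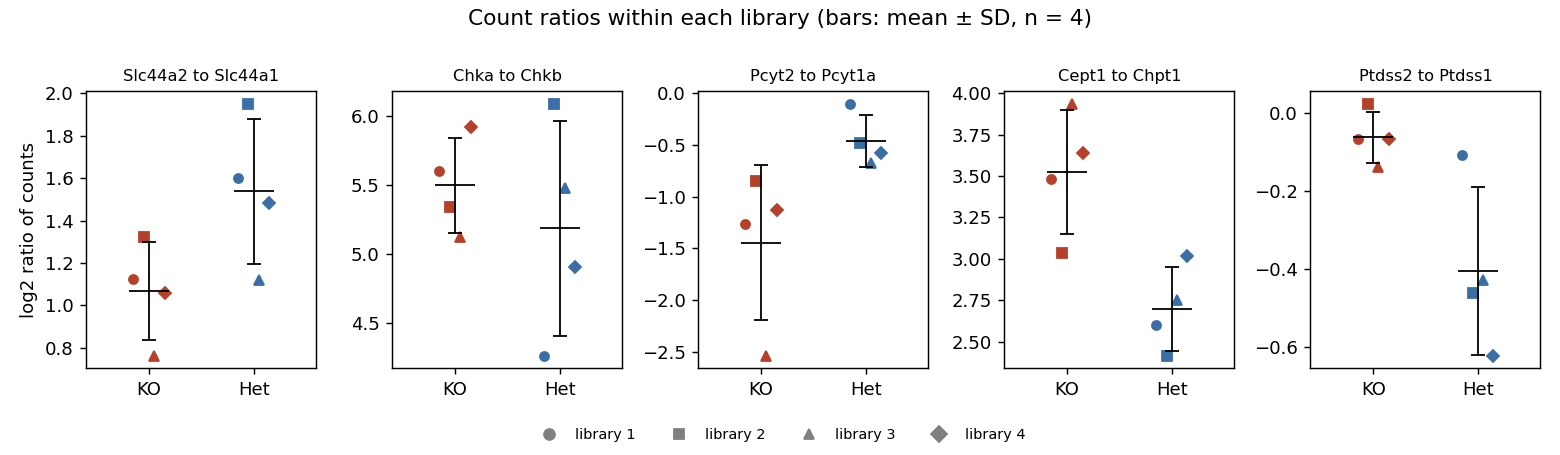
Log2 ratio of counts of the 5 enzyme or transporter pairs within each library, knockout (KO) left of heterozygous (Het); each point is 1 library, marker shapes stand for library numbers and bars for mean ± SD. Pcyt2 to Pcyt1a is lower in all 4 knockout libraries and Cept1 to Chpt1 higher, and the other 3 ratios overlap.

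Around these members, 81 other genes of phospholipid metabolism in 8 lists were looked at, of which 67 could be tested and 14 did not pass the filter on low counts. In knockout libraries 6 rose and 3 fell, 13.4% of those tested against 9.55% of all genes, with a median log2 fold change of 0.02 against -0.03. The list of backbone supply genes held 4 of the called increases among 12 tested and no called decrease, against 5.53% of all genes called higher and 4.02% called lower, and 6 of the 12 had a positive log2 fold change. Gpam, Lpin1 and Lpin2 of this list were not called. Their log2 fold changes were -1.02, -0.71 and -0.03 (edgeR adjusted p = 0.219, 0.592 and 0.972). The count is thus read for the 4 genes and not for backbone supply as a whole. Agpat5, which acylates lysophosphatidic acid, had 131, 97.7, 127 and 118 CPM in knockout libraries, against 48.4, 63.6, 58.9 and 71.5 CPM in heterozygous libraries, without overlap (log2 fold change 0.97 ± 0.16 SE, edgeR adjusted p = 0.00609). The other 3 called genes of the list were the phosphatidate and lipid phosphate phosphatases Plpp3, Plpp1 and Plpp2, which the table lists under older symbols. Plpp3 was at 295 ± 38.8 CPM in knockout libraries and 164 ± 25.2 CPM in heterozygous libraries (log2 fold change 0.85 ± 0.16 SE, edgeR adjusted p = 0.00930). Plpp1 had a log2 fold change of 0.79 ± 0.17 (SE, edgeR adjusted p = 0.0197) and Plpp2 of 1.18 ± 0.31 (SE, edgeR adjusted p = 0.0381). Each of the 3 phosphatases was higher in all 4 knockout libraries than in any heterozygous library. The call of Plpp1 was lost without knockout library 1 or 4 or heterozygous library 1 or 2 (edgeR adjusted p = 0.0512 to 0.0599), and that of Plpp2 without any library but knockout 3 (adjusted p = 0.0543 to 0.109). Of the 50-base sequences of Agpat5, 18.6% also occur, read on either strand, in transcripts of other genes, and of Plpp1 23.1%. Nearly all lie in overlaps with genes on the opposite strand, Gm35934 for Agpat5 and Mtrex for Plpp1. Without a stated strand setting their levels are less certain.

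The CDP-diacylglycerol branch, which leads to phosphatidylinositol and cardiolipin, held 2 called increases and 1 called decrease among 7 tested genes, against 5.53% and 4.02% of all genes, with a median log2 fold change of 0.05. Cdipt, the phosphatidylinositol synthase, was at 622 ± 104 CPM in knockout libraries and 397 ± 49.3 CPM in heterozygous libraries (log2 fold change 0.65 ± 0.16 SE, edgeR adjusted p = 0.0289). Pgs1, the phosphatidylglycerophosphate synthase, was at 93.9 ± 15.5 CPM in knockout libraries and 61.8 ± 9.28 CPM in heterozygous libraries (log2 fold change 0.61 ± 0.17 SE, edgeR adjusted p = 0.0487), and its ranges overlapped slightly. Tamm41, the mitochondrial CDP-diacylglycerol synthase, had 23.1, 23.8, 20.8 and 21.7 CPM in knockout libraries, against 47.7, 37.7, 31.3 and 40.3 CPM in heterozygous libraries (log2 fold change -0.81 ± 0.18 SE, edgeR adjusted p = 0.0211). The call of Tamm41 was lost without knockout library 1 or 4 or heterozygous library 1 (edgeR adjusted p = 0.0559 to 0.0648). That of Cdipt was lost without knockout library 1 or 4 or heterozygous library 1, 2 or 3 (adjusted p = 0.0515 to 0.0766), and that of Pgs1 held only without knockout library 3 or heterozygous library 1 and was lost in the other 6 fits (adjusted p = 0.0682 to 0.131).

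Of the genes that break phosphatidylcholine down and release choline, 2 of 12 tested were called lower and 0 higher, against 4.02% and 5.53% of all genes, with a median log2 fold change of -0.19. Pnpla6, the lysophospholipase that hydrolyses phosphatidylcholine to glycerophosphocholine, had 38.7, 28.2, 45.6 and 55.1 CPM in knockout libraries, against 93.9, 128, 145 and 92.6 CPM in heterozygous libraries. The genotypes were far apart, with a 2.73-fold lower level in knockout libraries (log2 fold change -1.45 ± 0.23 SE, edgeR adjusted p = 0.00468). Gpcpd1, which hydrolyses glycerophosphocholine, had 71.4, 45.9, 49.9 and 54.4 CPM in knockout libraries, against 61.9, 101, 146 and 137 CPM in heterozygous libraries (log2 fold change -1.01 ± 0.26 SE, edgeR adjusted p = 0.0352). Its genotypes overlapped at knockout library 1 and heterozygous library 1, and its call was kept only without either of those 2 libraries (adjusted p = 0.0494 and 0.0108) and lost in the other 6 fits (adjusted p = 0.0612 to 0.0905). Agpat5, Plpp3 and Pnpla6 were called whichever single library was left out. Without the 2 libraries with almost no Xist, Plpp3 alone among the 9 was called (adjusted p = 0.0478), with adjusted p of 0.0548 for Pnpla6 and 0.0553 for Agpat5. With the neuron score as a covariate the log2 fold change was -1.46 for Pnpla6 (edgeR adjusted p = 0.156), 0.89 for Agpat5 (adjusted p = 0.206) and 0.54 for Plpp3 (adjusted p = 0.384). With the score over other cell types it was -1.80 for Pnpla6 (adjusted p = 0.656), 1.11 for Agpat5 (adjusted p = 0.703) and 0.18 ± 0.39 for Plpp3 (SE, adjusted p = 0.976). Since both scores separated the genotypes, these fits do not isolate the genotype.

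The other 5 lists held no called gene. Flvcr2 itself had 393, 227, 260 and 326 CPM in knockout libraries, against 276, 444, 578 and 409 CPM in heterozygous libraries, with overlap (log2 fold change -0.50 ± 0.24 SE, edgeR adjusted p = 0.209; -0.32 without heterozygous library 3), and since the sources do not name the deleted part of the gene, its count does not check the labels. Flvcr1 was at 9.45 ± 2.68 CPM in knockout libraries and 7.27 ± 2.94 CPM in heterozygous libraries (edgeR adjusted p = 0.579). Among 7 other Kennedy pathway and decarboxylase genes tested, the most abundant beside Pisd was the ethanolamine kinase Etnk1, at 50.1 ± 3.72 CPM in knockout libraries and 32.9 ± 10.7 CPM in heterozygous libraries, without overlap (edgeR adjusted p = 0.140). Among 9 acyl chain remodelling genes, Lpcat3 was at 238 ± 18.5 CPM in knockout libraries and 278 ± 44.8 CPM in heterozygous libraries (edgeR adjusted p = 0.375), and Mboat2 at 71.3 ± 13.3 CPM in knockout libraries and 48.3 ± 8.53 CPM in heterozygous libraries, without overlap (edgeR adjusted p = 0.0861). Both are lysophospholipid acyltransferases.

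Among 9 genes that move phosphatidylserine between leaflets or organelles, Tmem30a, a flippase subunit, was at 162 ± 33.8 CPM in knockout libraries and 96.5 ± 27.1 CPM in heterozygous libraries (log2 fold change 0.75 ± 0.23 SE, edgeR adjusted p = 0.0628). Ano6, a scramblase, was at 48.1 ± 14.1 CPM in knockout libraries and 64.3 ± 13.7 CPM in heterozygous libraries (edgeR adjusted p = 0.296). Among 9 genes of phosphatidylcholine use and transfer, Mfsd2a, the lysophosphatidylcholine transporter of brain endothelium, was at 1231 ± 352 CPM in knockout libraries and 1171 ± 423 CPM in heterozygous libraries (log2 fold change 0.07 ± 0.28 SE, edgeR adjusted p = 0.901). Its libraries spread widely in both genotypes, from 847 to 1663 CPM in knockout libraries and from 665 to 1662 CPM in heterozygous libraries. Stard7, a phosphatidylcholine transfer protein, was at 162 ± 4.48 CPM in knockout libraries and 136 ± 23.2 CPM in heterozygous libraries (edgeR adjusted p = 0.313).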

How the data were processed

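RNA was measured in 8 libraries of 2000 to 5000 sorted cells. Per the labels' protocols, cDNA was made with SMART-Seq v4 and libraries with Nextera XT, and single-end reads of 50 bases came from a HiSeq4000. The authors deposited raw read counts per gene symbol. The submitters' processing notes name TopHat2 0.7, Cufflinks 2.2.1 and mm10. The counting program, its strand setting and its handling of reads that map to several places are not given in these sources, so overlapping and near-identical genes are uncertain.

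Genes were kept by filterByExpr (minimum count 10, minimum total 15), leaving 13540 genes with 99.9% of the counts. Counts were fitted with edgeR 4.0.16 in R 4.3.3 (TMM factors, robust quasi-likelihood F-test, genotype alone), with Benjamini-Hochberg adjustment over all tested genes. The procedure was tested on simulated data. Ratios used counts plus 0.5 and two-sided exact permutation tests over libraries (scipy 1.17.1), adjusted over 5. DESeq2 1.42.0, limma 3.58.1, other scalings and filters, a replicate block, marker scores as covariates and left-out libraries were alternatives. Exon lengths come from the protein-coding transcripts of the basic GENCODE M21 set and exon overlaps from all M21 transcripts, gene names, coordinates and promoters from RefSeq, all on GRCm38, the build of mm10. Of 146 listed symbols, 8 were matched through synonyms.

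The members, gene lists and tests were chosen with earlier results of these data known. Named genes are all members, Flvcr2, ratio partners, up to 4 called genes per list by smallest p or otherwise the 2 most abundant, and the 3 genes most like each called member. Gpam, Lpin1, Lpin2 and Pcyt1b were not chosen by that rule and are named as limits on what is read.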

Additional observations from a re-analysis of the deposited data

Results flagged for a closer look

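Among 70 groups of 4 libraries checked, 1 held a library far from the others, where chance alone gives about 1 in 20. Cept1 was at 79.1 CPM in knockout library 1, against 88.3 to 90.2 CPM in the other knockout libraries; its gap to the nearest was 0.830 of the range of the group, just above Dixon's critical value. Knockout library 1 was still above every heterozygous library.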

How the results depend on the processing

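The member values kept their direction and side of the threshold in 198 of 230 comparisons with an alternative, crossed to not called in 23, crossed to called in 1 (Cept1 at an adjusted p under 0.10) and turned round in 8. The log2 fold change of Slc44a5 was 0.0854 with the score over other cell types and that of Ptdss1, not called, was -0.123. For Slc44a2, not called, it was -0.0579 with library size alone, -0.0119 with upper quartile factors, -0.595 with the other-cell score, -0.294 with the neuron score, -0.0992 to 0.194 as each library was left out and -0.0623 without knockout 2 and heterozygous 1. Among other uncalled genes it was -1.35 and -0.491 for Flvcr1 and 1.01 and 0.221 for Chkb with the other-cell and neuron scores, and for Mfsd2a -0.0412 with library size alone, -0.152 without knockout 1 and heterozygous 2, and -0.123 to 0.292 as each library was left out (below 0 without knockout 1 or heterozygous 1). The cause was not tested.

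Of all 13540 genes tested by edgeR, 3473 had an unadjusted p under 0.05. Of the 10 members 5 did, and 2 were called. The count called was 1 with library size alone (Ptdss2 lost, adjusted p = 0.0619) and with the replicate block. It was 0 at an adjusted p under 0.01, 0 with the other-cell or the neuron score (1 unadjusted under each), 0 without either pair of libraries (3 unadjusted), and 0 to 2 as each library was left out; DESeq2 called 2. Of the 67 tested list genes, 9 were called, against 17 by DESeq2, 5 with the replicate block, 0 with the other-cell score (4 unadjusted), 0 with the neuron score (13 unadjusted), 5 without knockout 2 and heterozygous 1, 1 without knockout 1 and heterozygous 2, 3 at an adjusted p under 0.01, 16 under 0.10, and 3 to 10 as each library was left out. Of all genes, 1293 were called, against 2394 by DESeq2, 2266 by limma voom with sample weights, 0 by edgeR given the other-cell score (907 unadjusted), 48 given the neuron score, 842 and 300 without those pairs, 352 under 0.01, 2081 under 0.10, and 579 to 1347 as each library was left out. Unadjusted, 1627 of all genes were under 0.05 given the neuron score, and 2988 and 2603 without those pairs. With library size alone 539 genes were higher and 725 lower, against 749 and 544, and the median over all genes shifted to -0.15, against -0.03.

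The deviations of same-numbered libraries from their genotype means had r = 0.06, 0.21, -0.05 and 0.02 for numbers 1 to 4. Libraries of unlike number had r of -0.15 to 0.15. The value of number 2 was the highest of all, and so few values cannot settle whether the numbers pair libraries. With the replicate block 868 genes were called, the log2 fold change of Slc44a5 was -3.52 (adjusted p = 0.0484) and that of Ptdss2 0.57 (adjusted p = 0.1005). The 5 ratios kept their direction under the alternatives run. With same-numbered libraries paired, Pcyt2 to Pcyt1a and Cept1 to Chpt1 had a paired exact p of 0.125, the smallest that paired signs can give. No p was computed for ratios with a library left out, where 3 against 4 libraries cannot give one below 0.0571. Slc44a5 rests on 1 to 44 reads per knockout library, which limits its precision.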
